A study of Homo sapiens with 14 samples.

Results

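Translation efficiency (TE) was compared between definitive endoderm and late pancreatic progenitors in HUES8, an established human embryonic stem cell line that was differentiated in culture. TE is the Ribo-seq signal of a gene relative to its RNA-seq signal. Its change from DE to PP2 was taken as the Ribo-seq log2 change minus the RNA-seq log2 change. Of 59050 gene symbols in the count table, 14152 had enough counts in each assay and were tested. All groups were wild-type HUES8 cells, and the labels give the stage as the only difference between them. The stages used were definitive endoderm (DE, 2 libraries per assay) and late pancreatic progenitors (PP2, 3 libraries per assay). An early pancreatic progenitor stage (PP1, 2 libraries per assay) entered the fit to estimate the spread. RNA-seq was made from total RNA depleted of ribosomal RNA, and Ribo-seq from RNA bound to ribosomes. No source used here said that libraries came from separate differentiations, so p-values measure only the spread between these libraries, which may be technical.

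Ribosome profiling reads the fragments of mRNA that ribosomes cover, so the number of footprints on a gene rises with its mRNA level and with the number of ribosomes per mRNA. Dividing by RNA-seq removes the mRNA level. Known routes that change ribosome load on selected mRNAs include mTOR signalling, which acts on mRNAs that start with a pyrimidine tract, and phosphorylation of the initiation factor eIF2, which favours mRNAs with upstream reading frames. Secreted and membrane proteins are made by ribosomes docked at the endoplasmic reticulum. Noncoding RNAs and small RNAs also leave reads in such libraries, and for them the same ratio is not a measure of protein synthesis.

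The stage labels were checked against marker genes, in CPM, which are counts scaled by library size. The summed level of 5 definitive endoderm markers (SOX17, FOXA2, GATA6, CXCR4 and CER1) was 3971 to 4219 CPM in DE RNA-seq and 84.4 to 184 CPM in PP2 RNA-seq. The 6 pancreatic progenitor markers summed to 16.2 to 18.7 CPM in DE and 186 to 698 CPM in PP2. Markers of liver cells (ALB, AFP, TTR, APOA1 and FGB) also summed to 1315 to 3417 CPM in PP2 RNA-seq and 3207 to 11470 CPM in PP2 Ribo-seq, none of the 5 being at 0. In these bulk samples more cells of a type and more RNA per cell cannot be told apart, and the part of liver-type cells in the TE changes was not tested. RNA-seq libraries held 15107847 to 21009065 counts, of which 89.1% to 93.3% were in protein-coding genes. Ribo-seq libraries were shallower and more uneven. Protein-coding counts numbered 2118468 and 2143439 in DE, against 22934487, 3155002 and 8169981 in PP2 replicates 1, 2 and 3. They made up 34.7% and 35.2% of the DE counts and 94.8%, 43.8% and 79.6% of the PP2 counts. The mitochondrial ribosomal RNA gene MT-RNR2 took 49.97% and 49.2% of DE counts but 1.65%, 44.6% and 11% of PP2 counts. PP2 Ribo-seq replicates 1 and 3 thus differed from the other Ribo-seq libraries in composition, and RNA-seq PP2 replicate 3 stood apart from replicates 1 and 2. Many list results are also given without one or more of these libraries.

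TE was higher in PP2 for 284 genes and lower for 520 (804 of 14152, or 5.68%, with 2.01% higher and 3.67% lower; edgeR quasi-likelihood test, Benjamini-Hochberg adjusted p under 0.05). The median change over all tested genes was 0.02 on the log2 scale, with quartiles of -0.82 and 0.71. Among 12809 protein-coding genes 278 were higher and 356 lower, with a median of 0.11. Which direction held more coding calls depended on the libraries and the tool. Without RNA-seq PP2 replicate 3 there were 469 higher and 360 lower (median 0.17). With Ribo-seq PP2 replicate 1, 2 or 3 as the only one there were 2071, 49 and 1230 higher against 1646, 94 and 996 lower. DESeq2 gave 890 higher and 811 lower, and voom 2047 and 1452. At a mean of at least 10 CPM in each assay the balance turned, with 220 higher and 119 lower of 8315 protein-coding genes. More genes passed in a single assay. In separate fits of each assay, 5648 genes (39.9%) passed for RNA-seq and 4089 (28.9%) for Ribo-seq. The joint fit of both assays gave 3681 for RNA-seq and 5974 for Ribo-seq, the reverse order. The TE contrast takes in the spread of both assays, so these counts do not show how widely each quantity changed. Of the 5648, Ribo-seq passed in the same direction for 2476 and in the opposite direction for 97. The 2 changes correlated across genes (Pearson r = 0.70, Spearman rho = 0.55, n = 14152 genes, which are not independent and come from the same 10 libraries).

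**Figure D1:**
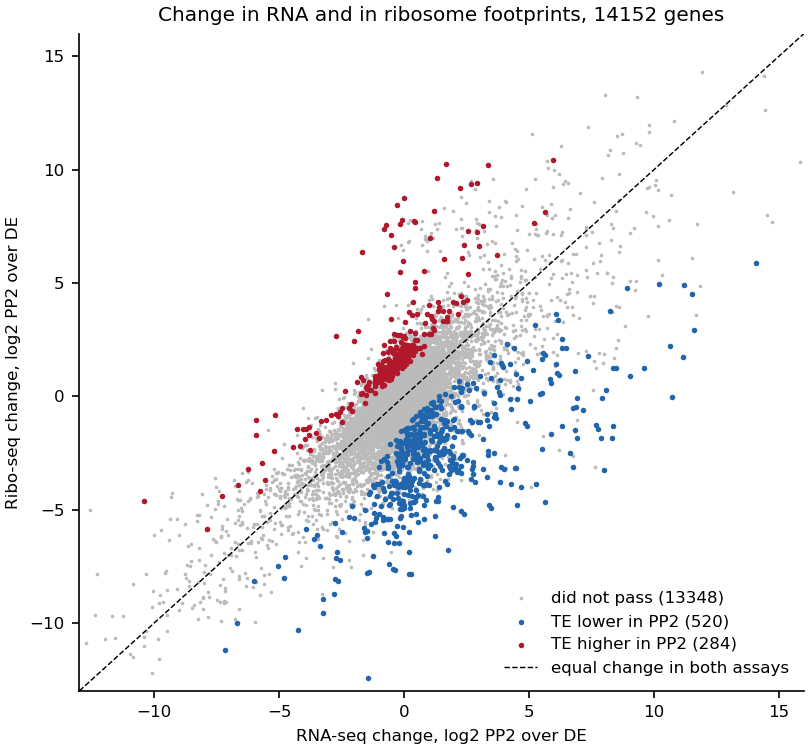
RNA-seq change (horizontal axis) against Ribo-seq change (vertical axis), each as log2 PP2 over DE, for the 14152 tested genes. Most genes lie near the dashed line of equal change, the 284 genes with higher TE lie above it, and the 520 with lower TE lie below it.

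The number of calls depended strongly on single libraries. Leaving out RNA-seq DE replicate 1 or 2, which leaves a single DE RNA-seq library, left 64 and 52 genes. Without Ribo-seq PP2 replicate 2 there were 3704 calls (10.9% of all genes higher and 15.8% lower). Without Ribo-seq PP2 replicate 3 there were 336 (0.717% higher and 1.69% lower). With Ribo-seq PP2 replicate 1, 2 or 3 kept as the only one at that stage, 4773, 191 and 2816 genes passed. In those 3 fits 13.6%, 0.379% and 8.33% of all tested genes were higher, and 17.5%, 0.869% and 10.1% lower, and list counts from the same fits are to be read against these shares. Fitted without RNA-seq PP2 replicate 3, the data gave 1001 calls. A call of a named gene was lost without RNA-seq DE replicate 1 and also without replicate 2, with these exceptions. CDH7, MICAL2, SYTL5, NFATC2, CNKSR2, CSRP1, NKX6-1, FABP1, MIR302B and MIR302CHG passed in all 14 fits that each left out 1 library, and MACC1 and GHRL were lost only without RNA-seq DE replicate 2.

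Higher TE in protein-coding genes came with more footprints, less RNA or both. Of the 278, 125 passed for Ribo-seq alone and 65 for RNA-seq alone, all 65 with less RNA. A further 71 passed in each assay in the same direction, 12 had less RNA and more footprints, and 5 passed in neither. Of the 356 with lower TE, 128 passed for Ribo-seq alone and 125 for RNA-seq alone, all 125 with more RNA. Another 51 had more RNA and fewer footprints, 45 moved the same way in each assay and 7 passed in neither. These classes describe the calls and are no separate test, since the TE change is made of the same values.

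Genes called lower had unusually many footprints per RNA in DE. Among 11336 protein-coding genes with at least 10 counts in every group, the median log2 Ribo-seq over RNA-seq level was -0.08 in DE, -0.02 in PP1 and 0.06 in PP2. For the 246 of them with lower TE it was 2.05 in DE, 0.47 in PP1 and -0.76 in PP2. For the 231 with higher TE it was -1.13 in DE, -0.13 in PP1 and 0.78 in PP2. The calls use the DE and PP2 levels. The PP1 values lay between the others, but the PP1 libraries also set the spread in the same fit. These medians therefore describe the calls and are no separate test. Low counts accompanied many calls. Of the 278 higher genes, 43 had fewer than 10 Ribo-seq counts over both DE libraries. Of the 356 lower genes, 54 had fewer than 10 RNA-seq counts in DE and 28 fewer than 10 Ribo-seq counts in PP2.

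Footprints changed less than RNA where RNA rose most. Among 310 genes whose RNA rose by more than 4 on the log2 scale, the median RNA-seq change was 5.87, the median Ribo-seq change 4.41 and the median TE change -1.65, with 3 genes higher and 57 lower. Among 263 genes whose RNA fell by more than 4, the median RNA-seq change was -5.62, the median Ribo-seq change -4.91 and the median TE change 0.61, with 15 higher and 4 lower. The RNA-seq values enter the RNA change and the TE change with opposite signs, and the part of RNA-seq error in this pattern was not tested.

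Extracellular matrix and basement membrane genes were the list with the largest median TE gain among the 35 lists examined. Of 29 tested, 6 rose (20.7%, against 2.01% of all genes) and none fell. Positive values numbered 26, and the median was 1.68 against 0.02 over all genes. Their median RNA change was 0.19 and their median Ribo-seq change 1.56. LAMC1, the gamma-1 chain shared by most laminins, stood at 134 and 141 CPM in DE RNA-seq and 305, 353 and 274 CPM in PP2 RNA-seq. Its Ribo-seq levels were 55.6 and 83.6 CPM in DE and 853, 420 and 1002 CPM in PP2. Neither assay overlapped between stages, and the footprints rose more than the RNA, with a log2 TE change of 2.27 ± 0.51 (SE, adjusted p = 0.024). FRAS1, a basement membrane protein, had 528 and 530 CPM in DE RNA-seq and 1097, 1096 and 731 CPM in PP2. Its Ribo-seq levels went from 114 and 111 CPM to 1422, 497 and 1338 CPM, a log2 TE change of 2.39 ± 0.58 (adjusted p = 0.030). COL1A2, a type I collagen chain, had 24.4 and 32.7 CPM in DE RNA-seq and 33.0, 19.3 and 15.3 CPM in PP2, which overlap. Its footprints went from 26.6 and 32.9 CPM to 154, 46.6 and 151 CPM, and TE rose by 2.32 ± 0.62 (adjusted p = 0.041). FBN1, a microfibril protein, rose by 2.696 ± 0.742 (adjusted p = 0.047).

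In a pair of matrix genes the RNA fell and footprints fell less. FBN2, a fibrillin of embryonic tissue, had 641 and 658 CPM in DE RNA-seq against 34.8, 33.8 and 34.5 CPM in PP2. Its Ribo-seq levels were 197 and 221 CPM in DE and 81.9, 33.0 and 121 CPM in PP2, so TE rose by 2.83 ± 0.57 (adjusted p = 0.014). TNC, the matrix glycoprotein tenascin C, fell from 418 and 482 CPM to 10.01, 7.38 and 9.47 CPM in RNA-seq. In Ribo-seq it fell from 121 and 140 CPM to 18.8, 5.44 and 26.6 CPM, with a TE change of 2.73 ± 0.60 (adjusted p = 0.020). COL3A1 had the lowest value of the list, -5.92, and did not pass (adjusted p = 0.075). In PP2, mesenchyme markers summed to 108 to 179 CPM in RNA-seq and 105 to 234 CPM in Ribo-seq, against 60.3 to 68.2 and 43.1 to 58.8 CPM in DE. PDGFRA held most of the sum, with RNA-seq means of 56.2 CPM in DE and 121 CPM in PP2. PDGFRB and LUM also rose in each assay, while TWIST1 fell in each assay and PRRX1 fell in Ribo-seq. The part of mesenchyme cells in the matrix result was not tested. With Ribo-seq PP2 replicate 1, 2 or 3 as the only one, 22, 0 and 21 of the 29 rose (75.9%, 0% and 72.4%, against 13.6%, 0.379% and 8.33% of all genes), 1 fell in each, and the median was 2.03, 0.79 and 2.11. Without Ribo-seq PP2 replicate 3, 3 rose (10.3%, against 0.717% of all genes), and without replicate 2, 22 rose (75.9%, against 10.9%). Without RNA-seq DE replicate 1 or 2 none rose, while the median was 1.75 and 1.62. Of the 14 fits that each left out 1 library, FBN2 passed in 12, TNC in 11, LAMC1 in 10, FRAS1 in 5, COL1A2 in 4 and FBN1 in 1, with positive values in all of them.

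**Figure D2:**
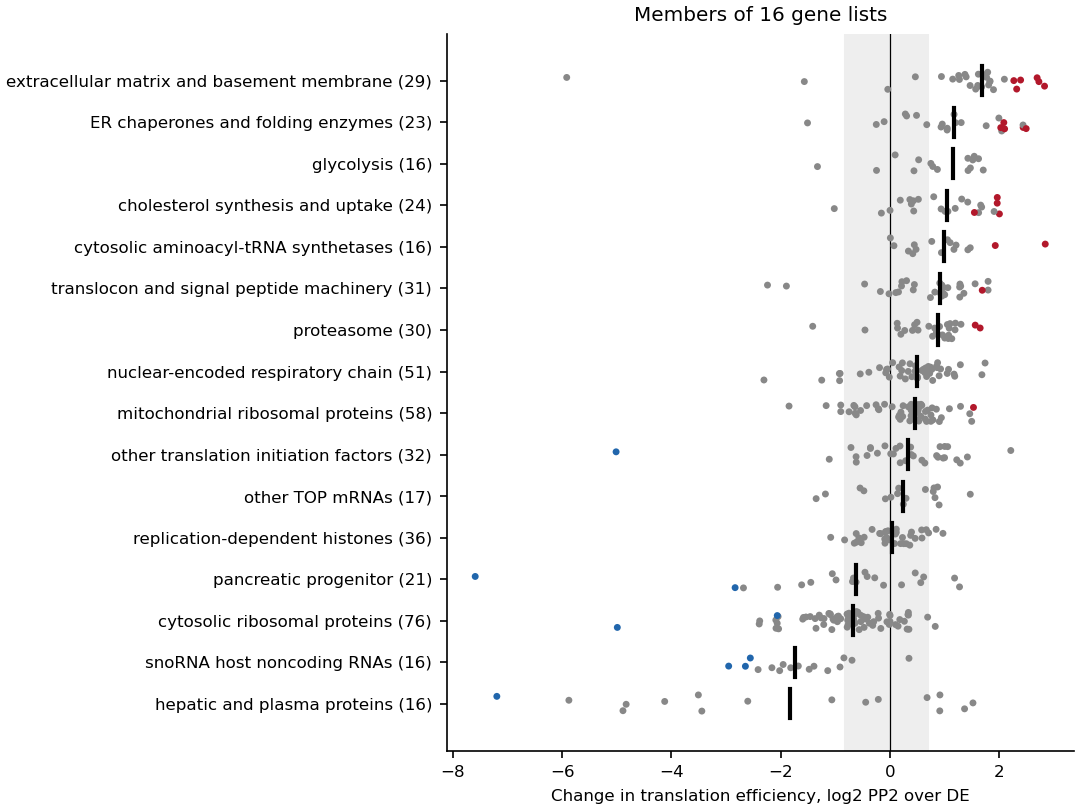
Log2 TE change of each tested member (point) of 16 lists, with the number tested in brackets and the list median as a black bar. Red points rose, blue points fell, grey points did not pass, and the grey band spans the quartiles of all genes, -0.82 to 0.71. Matrix genes centre at 1.68 and cytosolic ribosomal proteins at -0.67.

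Chaperones and folding enzymes of the endoplasmic reticulum followed, with 5 of 23 higher (21.7%, against 2.01% of all genes), none lower and a median of 1.175. Their median RNA change was -0.18 and their median Ribo-seq change 1.17. PDIA4, a disulfide isomerase, had 314 and 335 CPM in DE RNA-seq and 204, 212 and 162 CPM in PP2. Its Ribo-seq levels were 233 and 341 CPM in DE and 873, 435 and 864 CPM in PP2. RNA and footprints thus moved in opposite directions without overlap, and TE rose by 2.09 ± 0.48 (adjusted p = 0.025). HYOU1, a large chaperone of the same compartment, behaved likewise, with RNA-seq at 346 and 394 against 243, 261 and 270 CPM. Its Ribo-seq levels were 199 and 236 CPM in DE and 756, 350 and 846 CPM in PP2, a TE change of 2.10 ± 0.50 (adjusted p = 0.027). UGGT1, which tests glycoproteins for correct folding, showed similar RNA in each stage (135 and 134 CPM against 158, 155 and 124 CPM). Its footprints rose from 49.5 and 72.3 CPM to 330, 143 and 335 CPM, and TE by 2.03 ± 0.48 (adjusted p = 0.028). PDIA3 (2.50 ± 0.65, adjusted p = 0.039) and the co-chaperone DNAJB9 (2.44 ± 0.65, adjusted p = 0.041) also rose. HSPA5, the main chaperone of this compartment, had a value of 2.44 and did not pass (adjusted p = 0.056). Its RNA was 518 and 527 CPM in DE and 300, 311 and 80.3 CPM in PP2, the last in RNA-seq replicate 3.

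The machinery that moves proteins into the endoplasmic reticulum and glycosylates them had a median of 0.93 over 31 genes. Of these, 26 had positive values and 1 rose (3.23%, near the 2.01% of all genes). It was STT3A, a catalytic subunit of the oligosaccharyltransferase. It held 119 and 128 CPM in DE RNA-seq and 114, 115 and 165 CPM in PP2. Its footprints went from 114 and 114 CPM to 486, 216 and 472 CPM, with a TE change of 1.69 ± 0.47 (adjusted p = 0.049). Signal recognition particle subunits were not alike. SRP54 stood at 1.80 (adjusted p = 0.061), and SRP9 at -2.24 (adjusted p = 0.05002) and SRP19 at -1.89 (adjusted p = 0.096), none of which passed. With Ribo-seq PP2 replicate 2 as the only one, none of the chaperone or translocon genes rose, and the medians were 0.59 and 0.22. With replicate 1 as the only one they were 1.46 (14 of 23 higher) and 1.37 (17 of 31 higher). Without RNA-seq PP2 replicate 3, 7 chaperones (30.4%) and 6 translocon genes (19.4%) rose, against 3.37% of all genes, with medians of 1.44 and 0.85. When protein-coding genes alone were fitted, no translocon gene rose and 1 fell. Leaving out Ribo-seq PP2 replicate 1, 2 or 3 gave 3, 13 and 1 chaperones and 0, 16 and 0 translocon genes higher. In those fits 1.22%, 10.9% and 0.717% of all genes were higher. PDIA4 passed in 10 of the 14 single-library fits, HYOU1 and UGGT1 in 6, PDIA3 and DNAJB9 in 4 and STT3A in 2. STT3A thus passed least often of these, although its values stayed between 1.498 and 1.958. Without RNA-seq DE replicate 1 or 2, none of either list passed, and the medians were 1.203 and 1.16 for chaperones and 0.93 and 0.86 for the translocon.

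Genes of cholesterol synthesis and uptake had a positive median TE change of 1.04, with a median RNA change of -0.31 and a median Ribo-seq change of 0.47. Of 24 tested, 4 rose (16.7%, against 2.01% of all genes), none fell and 22 had positive values. SQLE, an oxygenase of the synthesis pathway, had 109 and 111 CPM in DE RNA-seq and 85.0, 96.0 and 96.7 CPM in PP2. Its footprints went from 29.0 and 51.5 CPM to 194, 73.0 and 129 CPM. Neither assay overlapped between stages, with slightly lower RNA and higher footprints in PP2, and TE rose by 1.97 ± 0.50 (adjusted p = 0.035). Over the 3 Ribo-seq PP2 replicates each kept as the only one, 14, 0 and 8 rose, with medians of 1.66, 0.66 and 0.94. Without Ribo-seq PP2 replicate 2 or 3, 11 (45.8%) and 2 (8.33%) rose, against 10.9% and 0.717% of all genes. None rose without RNA-seq DE replicate 1 or 2, with medians of 1.10 and 1.01. SQLE passed in 5 of the 14 single-library fits.

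Lists of tRNA charging, protein turnover and glycolysis also had positive medians. All 16 tested cytosolic aminoacyl-tRNA synthetases, which charge tRNAs, had positive values, with a median of 0.9998. Of these, 2 were higher (12.5%, against 2.01% of all genes). VARS, the valine enzyme, had 53.2 and 60.9 CPM in DE RNA-seq and 57.2, 71.1 and 28.8 CPM in PP2. Its footprints went from 19.7 and 11.3 CPM to 143, 50.7 and 113 CPM, a TE change of 2.85 ± 0.62 (adjusted p = 0.019). EPRS, the glutamate and proline enzyme, rose by 1.93 ± 0.53 (adjusted p = 0.046). Among 30 proteasome genes PSMD1 (1.56 ± 0.43, adjusted p = 0.046) and PSMD12 (1.65 ± 0.44, adjusted p = 0.039) rose (6.67%, against 2.01% of all genes). None fell, with a median of 0.89 and 28 positive values. No glycolysis gene passed, although 14 of 16 had positive values and the median was 1.15. PKM, which makes pyruvate, had the largest value of these at 1.71 (adjusted p = 0.075). Its RNA went from 1055 and 1097 CPM to 363, 399 and 293 CPM, while footprints were 467 and 523 CPM in DE and 813, 285 and 490 CPM in PP2. In these 3 lists with only Ribo-seq PP2 replicate 2 kept, none passed, and the medians were 0.38, 0.29 and 0.50. With replicate 1 alone 8 synthetases, 17 proteasome genes and 11 glycolysis genes rose. Leaving out RNA-seq DE replicate 1 or 2 ended every call in the 3 lists. Without Ribo-seq PP2 replicate 2, 8 synthetases (50%), 12 proteasome genes (40%) and 8 glycolysis genes (50%) rose, against 10.9% of all genes. VARS passed in 11 of the 14 single-library fits, PSMD1 and PSMD12 in 4 and EPRS in 2.

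Among 22 targets of the stress factor ATF4, 2 were higher (9.09%, against 2.01% of all genes) and 1 lower (4.55%, against 3.67%), with a median of 0.33. That median was -0.01 without RNA-seq DE replicate 1, -0.09 without Ribo-seq PP2 replicate 3 and 0.96 without RNA-seq PP2 replicate 3. SLC7A1, an importer of cationic amino acids with regulatory upstream reading frames, had 38.3 and 33.6 CPM in DE RNA-seq and 92.2, 111 and 89.5 CPM in PP2. Its footprints rose from 13.3 and 9.98 CPM to 181, 90.9 and 274 CPM, and TE by 2.53 ± 0.52 (adjusted p = 0.016). SLC7A5, the large chain of a leucine transporter, fell in RNA-seq from 823 and 815 CPM to 112, 153 and 71.2 CPM. Its footprints were 235 and 215 CPM in DE and 129, 72.0 and 189 CPM in PP2, and TE rose by 2.08 ± 0.56 (adjusted p = 0.042). ASNS, asparagine synthetase, was called lower at -5.16 ± 1.19 (adjusted p = 0.025) on only 8 Ribo-seq counts in DE and 6 in PP2. Of 19 mRNAs with known regulatory upstream reading frames, 2 rose, SLC7A1 and EPRS (10.5%, against 2.01% of all genes), and none fell. SLC7A1 passed in 12 of the 14 single-library fits, ASNS in 9 and SLC7A5 in 5.

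Cytosolic ribosomal proteins had a negative median. Of 76 tested, 2 fell (2.63%, below the 3.67% of all genes), none rose and 13 had positive values, with a median TE change of -0.67, a median RNA change of 0.53 and a median Ribo-seq change of -0.09. RPS29, a small-subunit protein, had 23.0 and 22.4 CPM in DE RNA-seq and 49.2, 43.1 and 78.7 CPM in PP2. Its footprints were 24.7 and 58.3 CPM in DE and 28.1, 30.5 and 16.5 CPM in PP2, which overlap, and TE fell by 2.06 (SE 0.56, adjusted p = 0.043). RNA-seq PP2 replicate 3 weighed on this list. RPL13A, a large-subunit protein, had 388 and 389 CPM in DE RNA-seq and 429, 414 and 1408 CPM in PP2, and its TE value was -0.77 (adjusted p = 0.48). Without that library the list median was -0.28 and no member passed, while without Ribo-seq PP2 replicate 2, 19 fell (25%, against 15.8% of all genes). In the 14 single-library fits RPS29 passed in 2, with values from -2.43 to -1.17.

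Most ribosomal protein mRNAs begin with a terminal oligopyrimidine (TOP) tract, the feature through which mTOR acts. The first 15 transcribed bases of 3 ribosomal protein genes and 2 other classic TOP genes are shown, because the tract is what the next comparison turns on. They are the first listed RefSeq starts (GRCh38.p14), and capitals mark a C at the first base with the run of C or T that follows. RPL13A lies at chr19:49487608-49487622 (plus strand), RPS3 at chr11:75399518-75399532 (plus), EEF2 at chr19:3985449-3985463 (minus), TPT1 at chr13:45341169-45341183 (minus) and RPS29 at chr14:49598696-49598710 (minus).
RPL13A: CTTTTCCaagcggct
RPS3: CCTTTCCTTTCagcg
EEF2: CTCTTCCgccgtcgt
TPT1: CTTTTCCgcccgctc
RPS29: tggcagcggtggttg
A TOP start was counted where the first base was C and the next 4 were each C or T, on the transcribed strand only. Such a start was present at 4.04% of 27305 promoter entries and at 41 of the 60 tested ribosomal proteins with an entry. The 41 had a median TE change of -0.65 and the 19 others -0.67. Outside the ribosomal proteins, 511 coding genes with a TOP start had a median of 0.09 (11 higher, 13 lower) and 9667 without had 0.12 (212 higher, 276 lower). The listed start can differ by some bases from the start used in these cells. Genes without a counted TOP start, RPS29 among them, may therefore still carry a tract, and the comparison cannot tell what the tract does. Among 17 other mRNAs known to carry TOP tracts none passed, and the median was 0.25 (0.14 without Ribo-seq PP2 replicate 3 and 0.42 without RNA-seq PP2 replicate 3). EEF2, the elongation factor that moves the ribosome along, had a value of 0.79 (adjusted p = 0.33). No gene of the mTOR pathway and its 4E-BP targets passed, with 14 tested and a median of 0.17 that was -0.01 without Ribo-seq PP2 replicate 2.

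Of 21 pancreatic progenitor genes none rose in TE and 2 fell (9.52%, against 3.67% of all genes), with a median TE change of -0.62 and a median RNA change of 3.46. ONECUT2, a liver and pancreas transcription factor, rose in RNA-seq from 9.86 and 8.09 CPM to 596, 727 and 694 CPM. Its footprints rose from 5.59 and 7.82 CPM to only 36.3, 96.5 and 79.3 CPM, and TE fell by 2.83 (SE 0.57, adjusted p = 0.014). NKX6-1, which marks the progenitors that give beta cells, had no RNA-seq count in DE and 2883, 2619 and 1549 counts in PP2. It had 19 and 15 Ribo-seq counts in DE and 7492, 1857 and 1856 in PP2. With 3 counts over the DE RNA-seq group as the floor, TE was at least 22.7-fold lower in PP2 (adjusted p = 0.0027). SOX9, a factor of duct and progenitor cells, stood at -2.68 and did not pass (adjusted p = 0.060). PDX1, the master factor of pancreas formation, had no count in DE in either assay, so no fold is given. In PP2 it had 158, 145 and 30.8 CPM in RNA-seq and 118, 101 and 88.9 CPM in Ribo-seq. ONECUT2 passed in 11 of the 14 single-library fits, being lost also without Ribo-seq DE replicate 2. The list median was -0.37 without RNA-seq DE replicate 2 and -0.25 with Ribo-seq PP2 replicate 2 as the only one at that stage. Without Ribo-seq PP2 replicate 2, 5 fell (23.8%, against 15.8% of all genes).

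Genes of other endodermal fates gave similar cases of footprints without RNA in DE. FABP1, a fatty acid carrier of gut and liver, had no RNA-seq count in DE and 30, 41 and 63 in PP2. It had 78 and 101 Ribo-seq counts in DE and 229, 31 and 60 in PP2, so TE was at least 79.5-fold lower (adjusted p = 0.00014). AHSG, a liver plasma protein, had 13 and 17 Ribo-seq counts and no RNA-seq count in DE, and its TE was at least 15.6-fold lower (adjusted p = 0.0065). CDX2, the intestinal master factor, was called at -6.97 ± 1.22 (adjusted p = 0.0065), but its DE Ribo-seq counts were 62 and 3. Without Ribo-seq DE replicate 1 its value was -3.44 and did not pass (adjusted p = 0.15). Over 16 hepatic and plasma protein genes only AHSG passed (6.25%, against 3.67% of all genes lower), and the median was -1.83 against a median RNA change of 7.87. Without RNA-seq PP2 replicate 3 that TE median was -1.09.

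For definitive endoderm genes the footprints fell less than the RNA at the median. Over 16 tested, the median RNA change was -1.83, the median Ribo-seq change -0.96 and the median TE change 0.69, against 0.02 over all genes, with 12 positive values. KIT was the only call (6.25%, against 2.01% of all genes). KIT, a receptor tyrosine kinase, fell in RNA-seq from 265 and 285 CPM to 60.9, 64.7 and 56.9 CPM. Its footprints were 148 and 150 CPM in DE and 138, 74.9 and 108 CPM in PP2, and TE rose by 1.70 ± 0.38 (adjusted p = 0.022), a call kept in 11 of the 14 single-library fits. CER1, a secreted inhibitor that marks endoderm, fell from 3024 and 3191 CPM to 0.390, 0.224 and 0.404 CPM in RNA-seq. In Ribo-seq it fell from 2469 and 4010 CPM to 0.465, 0.194 and 0.636 CPM, and its TE value of 0.38 did not pass (adjusted p = 0.75). Among 14 endocrine genes GHRL, the ghrelin hormone, was the only call (7.14%, against 2.01% of all genes higher). It had 93 RNA-seq counts in DE and 171 in PP2, with 1 Ribo-seq count in DE and 371, 36 and 81 in PP2. The ratio of rates put its TE 83.5-fold higher, with a 95% counting interval of 14.98 to 3297 for that single count (adjusted p = 0.0065).

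The 12 largest gains among genes with at least 10 CPM in each assay began with genes nearly free of footprints in DE. MACC1, a regulator of cell motility, had no Ribo-seq count in DE and 654, 79 and 176 counts in PP2, while its RNA went from 163 and 140 counts to 1730, 1819 and 2221. Its TE was at least 5.004-fold higher (adjusted p = 0.011). EFEMP1, a fibulin of the matrix, had 2 Ribo-seq counts in DE and 13820, 1154 and 4582 in PP2. That gave a TE ratio of 26.6 with a counting interval of 7.36 to 220 (adjusted p = 0.012). LSAMP, a neural cell adhesion protein (22.4, interval 6.21 to 185), SLC28A2, a nucleoside transporter (26.2, interval 4.71 to 1036), and TSHZ2, a zinc finger factor (21.7, interval 3.89 to 857), rested on 1 or 2 DE Ribo-seq counts in the same way. DPP4, a membrane peptidase, and TTLL7, a tubulin glutamylase, had 4 DE Ribo-seq counts each and values of 3.62 and 2.83. In the 14 single-library fits EFEMP1 and LSAMP passed in 12, TSHZ2 in 10, SLC28A2 and TTLL7 in 6 and DPP4 in 4.

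The other 5 were better covered in DE or had moderate counts. Besides VARS and FBN2 they were MXRA5, PLXNA4 and SLC17A5. PLXNA4, a receptor for semaphorins, fell from 158 and 186 CPM to 1.32, 0.820 and 1.25 CPM in RNA-seq. In Ribo-seq it fell from 38.8 and 60.1 CPM to 1.36, 3.69 and 2.44 CPM, so footprints fell less than RNA and TE rose by 2.80 ± 0.54 (adjusted p = 0.012). MXRA5, a matrix-remodelling protein, showed the same pattern, with 129 and 135 CPM in DE RNA-seq and 2.38, 2.42 and 0.505 CPM in PP2. Its footprints were 23.7 and 25.9 CPM against 3.25, 1.75 and 2.97 CPM, a TE change of 3.07 ± 0.69 (adjusted p = 0.023). SLC17A5, a lysosomal sialic acid carrier, rose by 2.81 ± 0.66 (adjusted p = 0.028) from 15 Ribo-seq counts in DE. PLXNA4 passed in 12 of the 14 single-library fits, MXRA5 in 10 and SLC17A5 in 8.

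**Figure D3:**
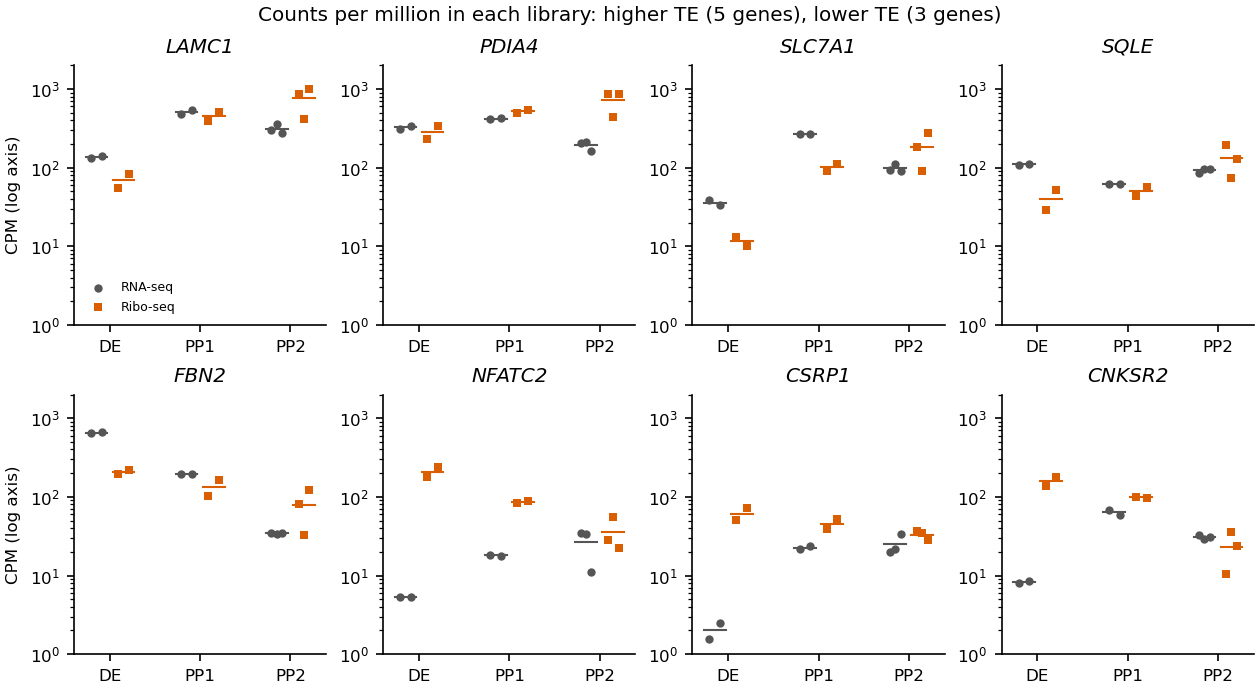
CPM (log axis) in each library at DE, PP1 and PP2 for 5 genes with higher and 3 with lower TE in PP2. Grey circles are RNA-seq, orange squares are Ribo-seq and short lines are group means. Footprints of LAMC1 rise from 55.6 and 83.6 CPM to 420 CPM or more, and those of NFATC2 fall from 179 and 238 CPM to 55.5 CPM or less while its RNA rises.

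Several of the 12 largest losses were genes whose RNA appeared or grew while footprints did not. CDH7, a cadherin, went from 6 and 2 RNA-seq counts in DE to 394, 458 and 983 in PP2. Its footprints were 31.4 and 50.4 CPM in DE and 30.8, 28.0 and 31.9 CPM in PP2, a TE change of -7.35 ± 0.64 (adjusted p = 5.4e-05). MICAL2, which oxidises actin, rose in RNA-seq from 1.31 and 1.26 CPM to 37.6, 48.9 and 27.7 CPM. Its footprints fell from 45.8 and 58.0 CPM to 17.9, 27.2 and 26.6 CPM, a TE change of -6.01 ± 0.47 (adjusted p = 2.3e-05). NFATC2, a calcium-regulated transcription factor, rose in RNA-seq from 5.30 and 5.25 CPM to 34.9, 34.0 and 11.02 CPM. Footprints fell from 179 and 238 CPM to 28.2, 55.5 and 22.1 CPM, for a TE change of -4.91 ± 0.65 (adjusted p = 0.0015). CNKSR2, a scaffold protein of synapses, gave -4.68 ± 0.54 (adjusted p = 0.00039), with more RNA and fewer footprints in every PP2 library than in either DE library. CSRP1, a LIM-domain protein of the cytoskeleton, gave -4.52 ± 0.46 (adjusted p = 0.00013). Its RNA rose from 1.56 and 2.46 CPM to 19.9, 21.7 and 33.6 CPM, and its footprints of 51.3 and 71.2 CPM in DE were 36.9, 34.6 and 28.1 CPM in PP2. SYTL5, a vesicle-transport protein, gave -5.60 ± 0.58 (adjusted p = 0.00014). These 6 genes passed under all 30 alternatives tried, which all draw on the same libraries. Whether their DE Ribo-seq reads came from overlapping or antisense genes was not tested.

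The remaining losses rested on fewer or more scattered counts. NKX6-1, given above, was among them, and its footprints rose along with its RNA. EIF4E3, a cap-binding protein, had 22.3 and 99.3 CPM in DE Ribo-seq and 1.47, 10.7 and 1.91 CPM in PP2, and was called at -5.65 ± 0.98 (adjusted p = 0.0065). NR2F1, a nuclear receptor of neural and mesodermal tissue, had 1 RNA-seq count in DE and 10 Ribo-seq counts there, a TE 54.8-fold lower with a counting interval of 9.83 to 2163. SCN9A, a sodium channel, had 1 RNA-seq count in DE and DE Ribo-seq counts of 0 and 8, and was 92.4-fold lower (interval 16.6 to 3651). Its log2 value turned to 1.17 without Ribo-seq DE replicate 2. EIF4A1, the helicase of translation initiation, was called at -5.01 ± 1.07 (adjusted p = 0.018) with 9.78 to 16.4 CPM in the 5 RNA-seq libraries. It shares sequence with close copies and overlaps small RNA genes, so that value is uncertain, and the part of either was not tested. It was the only call among 32 initiation factors (3.12%, against 3.67% of all genes lower), whose median was 0.34 (0.16 without Ribo-seq PP2 replicate 3). EIF4E3 and EIF4A1 passed in 12 of the 14 single-library fits, SCN9A in 11 and NR2F1 in 10.

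Ribo-seq over RNA-seq ratios of long noncoding RNAs and pseudogenes were mostly lower in PP2. Of 430 long noncoding RNA (lncRNA) genes tested, 1 was higher and 67 lower (15.6%, against 2.78% of protein-coding genes), with a median of -1.86. Their median RNA change was 0.19 and their median Ribo-seq change -1.69, so the lower ratio came with fewer Ribo-seq reads. Of 233 pseudogenes 2 were higher and 20 lower (8.58%), with a median of -1.47. Small RNA genes did not share this shift, with a median of 0.25 over 24 miRNA genes (1 higher, none lower) and -0.26 over 48 small nucleolar RNA genes (1 higher, 1 lower). Nothing in these values is a measure of protein synthesis. Of 590 tested symbols without a RefSeq match, and so of unknown type, 1 was higher and 76 lower. That is 12.9% lower, against 3.67% of all genes, with a median of -1.93. The host RNAs of small nucleolar RNAs, which hold short reading frames that are read by ribosomes and degraded, gave 3 lower and none higher of 16. That is 18.8% lower, against 3.67% of all genes. Their median was -1.75, and -1.14 without RNA-seq PP2 replicate 3. SNHG5 had 26.3 and 26.0 CPM in DE RNA-seq and 49.9, 47.4 and 71.4 CPM in PP2, against Ribo-seq levels of 127 and 155 CPM in DE and 22.2, 70.3 and 63.2 CPM in PP2 (TE -2.55 ± 0.55, adjusted p = 0.018). SNHG15 went from 58.8 and 57.4 CPM to 4.36, 21.2 and 6.05 CPM in Ribo-seq (TE -2.95 ± 0.76, adjusted p = 0.037), and SNHG3 stood at -2.64 ± 0.48 (adjusted p = 0.0084). SNHG3 and SNHG5 passed in 12 of the 14 single-library fits and SNHG15 in 2. MALAT1, a nuclear lncRNA, held 41619 and 33674 CPM in DE Ribo-seq and 1046, 11179 and 8933 CPM in PP2, and its TE value of -2.55 did not pass (adjusted p = 0.19).

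**Figure D4:**
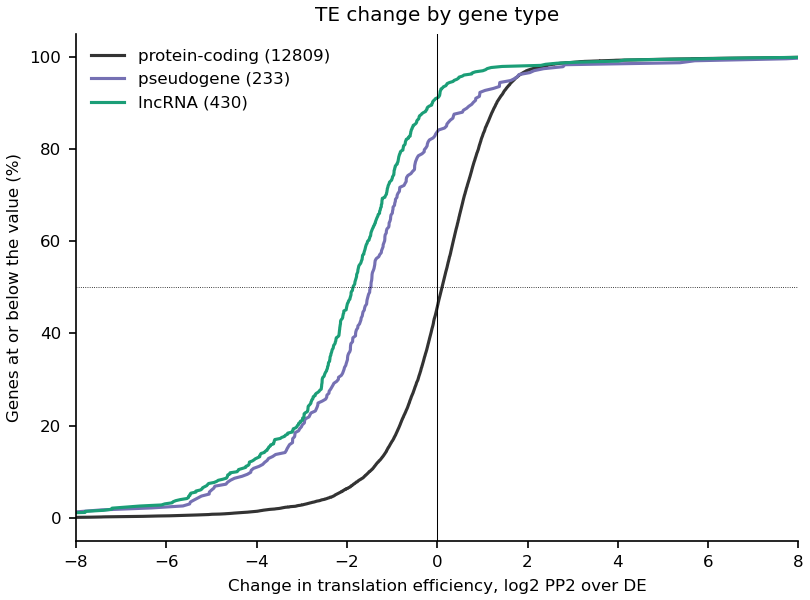
Share of genes (vertical axis, percent) at or below each log2 TE change (horizontal axis, shown from -8 to 8) for 12809 protein-coding genes, 233 pseudogenes and 430 lncRNA genes. The medians lie at 0.11, -1.47 and -1.86.

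The size of the lncRNA change differed between the Ribo-seq PP2 libraries. With PP2 replicate 1 as the only one, in which protein-coding genes took 94.8% of counts, the lncRNA median was -3.26 and 350 of 606 fell (57.8%, against 17.5% of all genes). With replicate 3 (79.6%) it was -2.54 and 207 of 606 fell (34.2% against 10.1%). With replicate 2 (43.8%, near the 34.7% and 35.2% of DE) it was -1.03 and 18 of 628 fell (2.87% against 0.869%). Matrix, chaperone, glycolysis, cholesterol and proteasome medians were likewise smallest with replicate 2. The part of library composition in the TE changes was not tested. The ribosomal protein median was -0.68, -0.57 and -0.52 with replicates 1, 2 and 3. Without RNA-seq DE replicate 1 or 2 the lncRNA median was -1.87 and -1.88, with 6 lower in each case.

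**Figure D5:**
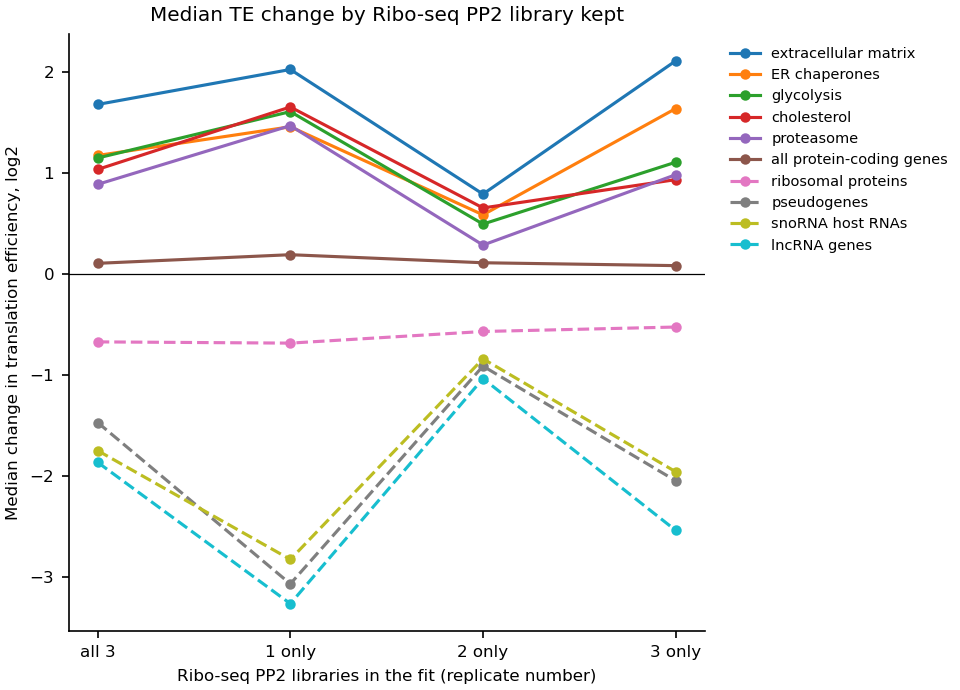
Median log2 TE change (vertical axis) of 10 gene sets with all 3 Ribo-seq PP2 libraries in the fit or with replicate 1, 2 or 3 as the only one (horizontal axis). Lines join the values of a set and imply no order. The lncRNA median ranges from -3.26 to -1.03 and the matrix median from 0.79 to 2.11.

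The miR-302 cluster on chromosome 4 showed opposite calls in the Ribo-seq over RNA-seq ratio for its host transcript and one of its small RNAs. For such RNAs this ratio is not a measure of protein synthesis. This cluster is active in pluripotent cells and early endoderm, and its members miR-302a to miR-302d have a common seed, the bases that pair with target mRNAs. The mature 3p strands are shown because the seed of miR-367 differs from the one the others share. Whether the reads counted on these genes in either assay came from the mature strands was not tested. Sequences are from RefSeq (GRCh38.p14, minus strand), with the seed (bases 2 to 8) in capitals. They lie at chr4:112648186-112648208, chr4:112648489-112648511, chr4:112648366-112648388, chr4:112648006-112648028 and chr4:112647877-112647898 in the order shown.
hsa-miR-302a-3p: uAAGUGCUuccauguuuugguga
hsa-miR-302b-3p: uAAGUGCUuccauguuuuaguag
hsa-miR-302c-3p: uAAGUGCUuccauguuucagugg
hsa-miR-302d-3p: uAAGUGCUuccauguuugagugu
hsa-miR-367-3p: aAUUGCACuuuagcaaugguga
The host transcript MIR302CHG had 18 and 25 RNA-seq counts in DE and 10, 11 and 8 in PP2. In Ribo-seq it had 2910 and 2353 counts at the DE stage, then 5 and 2 at PP1, and at PP2 0, 4 and 0, a TE change of -11.21 ± 1.12 (adjusted p = 0.00013). Reads of MIR302A, MIR302B, MIR302C and MIR302D lasted longer in Ribo-seq, but those of MIR367 did not. MIR367 had 23 and 38 Ribo-seq counts at the DE stage, 5 and 0 at PP1, and at PP2 1, 0 and 0. MIR302A had 48223 and 41981 Ribo-seq counts at the DE stage, 35446 and 29383 at PP1, and at PP2 1890, 4338 and 851. Its RNA-seq counts were 387 and 323 at the DE stage, 4 and 0 at PP1, and at PP2 2, 0 and 2. MIR302B was the only miRNA gene of 24 tested to pass. It had 547 and 484 RNA-seq counts in DE against 0, 0 and 1 in PP2, and 662 and 757 Ribo-seq counts in DE against 122, 76 and 49 in PP2. Its ratio rose 56.4-fold, with a counting interval of 10.1 to 2229 for the single PP2 RNA-seq count (adjusted p = 0.0057). MIR302A, MIR302C, MIR302D and MIR367 did not pass, with values of 2.92, 0.95, -0.72 and -1.85, the last with 3 or fewer counts in PP2 in each assay.

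Several large groups showed no call or a single call. None of 36 replication-dependent histone genes passed (median 0.04), nor any of 29 cell cycle genes (median 0.54), 51 nuclear-encoded respiratory chain genes (median 0.51) or 13 mitochondrially encoded protein genes (median 0.83). The mitochondrially encoded median was 0.20 without Ribo-seq PP2 replicate 3, 0.39 without RNA-seq PP2 replicate 3, 1.34 without Ribo-seq PP2 replicate 1, and -1.58 with that replicate as the only one. The histone median ranged from -0.35 without Ribo-seq PP2 replicate 1 to 0.79 without RNA-seq PP2 replicate 3. Without Ribo-seq PP2 replicate 1 the respiratory chain median was 0.26. By the same edgeR test at an unadjusted p under 0.05, the counts in these 4 lists were 0, 3, 6 and 1, and in glycolysis 9, against 3764 of all 14152 genes. Of 58 mitochondrial ribosomal proteins MRPL19 alone rose (1.72%, against 2.01% of all genes), by 1.53 ± 0.38 (adjusted p = 0.034). It passed in 6 of the 14 single-library fits. The list median was 0.46, and 0.15 without Ribo-seq PP2 replicate 1.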

How the data were processed

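The deposited values are unnormalized read counts by gene symbol, in a single featureCounts table of 14 libraries (7 RNA-seq, 7 Ribo-seq). Per the submitters' processing notes, cutadapt 1.18, Bowtie 1.2, STAR 2.7.1a and featureCounts 1.6.4 were used with hg38. The strand setting, the annotation and whether exons or coding sequence were counted are not given in the sources used here, so overlapping and antisense genes are uncertain.

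Genes passing filterByExpr in each assay were fitted in edgeR 4.0.16 (R 4.3.3, limma 3.58.1), with TMM scaling over all 14 libraries, 6 groups and 8 residual degrees of freedom. The interaction (Ribo-seq PP2 over DE, minus RNA-seq PP2 over DE) was tested by the quasi-likelihood F test. Benjamini-Hochberg adjusted p under 0.05 over all 14152 genes counted as passed. RNA-seq and Ribo-seq changes came from separate fits of each assay. A ± after a log2 value is its standard error. CPM use TMM-scaled library sizes and compare a gene only with itself. A group at 0 was set to a floor of 3 counts, and groups with 1 to 3 counts were given an exact Poisson 95% interval of the ratio. Both cover counting error only. Gene types came from RefSeq (GRCh38.p14) symbols. The fitting code was tested on simulated data.

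The members and lists were chosen with earlier results of these data known. Named genes were the 12 largest passing changes per direction among protein-coding genes with a mean of at least 10 CPM in each assay, and members of 35 lists (809 entries, 800 found). Some genes that this rule names are not reported here. The miR-302 genes and MIR302CHG were chosen after their values were seen. DESeq2 1.42.0, voom and other settings were the alternatives. RNA-seq and Ribo-seq libraries with the same number were not treated as paired in the main fit. Their deviations from group means correlated at 0.0027 (DE), 0.0349 (PP1) and -0.132, 0.104 and 0.0442 (PP2). PP2 libraries with unlike numbers correlated at -0.141 to 0.147. These values cannot decide whether the numbers pair the libraries.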

Additional observations from a re-analysis of the deposited data

How the results depend on the processing

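TE calls (main 804, 284 higher and 520 lower) moved by more than 1.5 times under most alternatives, and the cause was not tested. Counts are given as all, higher and lower. Filters gave 2135, 953 and 1182 without a low-count filter, and 234, 72 and 162 at a mean of 50 counts. Other tools gave 2069, 903 and 1166 (DESeq2 Wald), 4139, 2080 and 2059 (voom with quality weights) and 204, 28 and 176 (glmTreat at 2-fold). Fitting only DE and PP2 gave 205, 44 and 161, and thinning RNA-seq to the Ribo-seq depth 339, 100 and 239. A replicate block within stage gave 301, 69 and 232, and a replicate block across stages 455, 153 and 302. Whether the replicate numbers pair the libraries is not known. Leaving out Ribo-seq PP2 replicates 1 and 3 gave 191, 58 and 133. Leaving out Ribo-seq PP2 replicate 2 with RNA-seq PP2 replicate 3 gave 5184, 2596 and 2588. Fits chosen after seeing the data left out Ribo-seq PP2 replicates 2 and 3 (4773, 2091 and 2682) or 1 and 2 (2816, 1271 and 1545). Leaving out each library in turn gave 52 to 3704 calls, 9 to 1515 higher and 43 to 2189 lower. Ribo-seq calls ranged from 2157 to 6382 and RNA-seq calls from 3087 to 9102 in the same way, and the joint fit of both assays gave 3681 for RNA-seq and 5974 for Ribo-seq, the reverse of the order in the separate fits (5648 and 4089). DESeq2 size factors, TMM within each assay and protein-coding genes only kept every TE count within 1.5 times, and shared 771, 774 and 545 genes with the main calls, all in the same direction. Of the named genes SCN9A alone changed sign, ranging from -8.12 to 1.17 when each library was left out in turn. Depth in DE Ribo-seq limits genes with few footprints there.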
